A study of Homo sapiens with 4 samples.

Results

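The genes described here are 39 messenger RNAs known from the literature as targets of the let-7 family of microRNAs. Probe sets were matched to them by gene symbol on human Clariom S arrays, and 37 of the 39 were found among the 17687 genes with a named probe set, while NRAS and PLAGL1 were not analysed here. The cells were THP-1, a leukaemia line of monocytic origin that one label calls lymphocyte-like, and they were made macrophage-like with 100 ng/ml phorbol myristate acetate (PMA) over 2 days before a mimic, a synthetic copy of a mature microRNA, was introduced by lipofection for 24 h. There were 4 groups with 1 array each, for mimics of let-7d-5p, of miR-27b-3p and of miR-151a-5p and for a negative control mimic, and PMA and the lipid were common to all of them. With a single array in each group there is no replicate error, so no p-value is given and each difference compares one array with another. The samples are bulk RNA, in which fewer cells of a type and less RNA per cell cannot be told apart.

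The let-7 microRNAs accumulate when cells differentiate and hold down genes of the fetal and proliferative programme. A microRNA guides an Argonaute protein to messenger RNAs that pair with its seed, the stretch near its 5′ end, and the bound message is degraded or translated less. LIN28 proteins block the maturation of let-7 precursors and are themselves let-7 targets, which closes a loop between the family and its targets. A target can therefore lose protein with little change of its message, and arrays measure the message alone.

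The label of the let-7 array is not settled. The study lists its let-7a-5p, let-7d-3p and let-7e-5p arrays under other data sets and names only miR-27b-3p and miR-151a-5p for this one. The titles name let-7d-5p, the design text and the transfection protocol name let-7a-5p, and the methods list mimics of let-7a-5p, let-7e-5p and let-7d-3p. The array is called let-7d-5p below, after its title. The mature sequences from RefSeq (GRCh38.p14) are shown because they settle which of these names share a seed, with bases 2 to 8 in capitals.
hsa-let-7d-5p: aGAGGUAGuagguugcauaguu
hsa-let-7a-5p: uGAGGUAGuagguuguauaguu
hsa-let-7e-5p: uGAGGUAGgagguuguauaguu
hsa-let-7d-3p: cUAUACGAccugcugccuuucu
hsa-miR-27b-3p: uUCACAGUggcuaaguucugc
Counted from the 5′ end, let-7d-5p differs from let-7a-5p by U1A and U16C and let-7e-5p differs by U9G, all outside the seed. The 3 of them carry the seed GAGGUAG, whereas let-7d-3p, from the other arm of the same hairpin, and miR-27b-3p have other seeds. let-7d-5p is encoded on the forward strand at chr9:94178841-94178862 and let-7d-3p at chr9:94178895-94178916. Of the 2370 mature microRNAs read from the table, 11 have that seed, and they are let-7a, b, c, d, e, f, g and i, miR-98, miR-4458 and miR-4500. The sequence of miR-151a-5p is not shown.

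Values are log2 signals, in which a difference of 1 is a change of 2-fold. The floor for background signal was 5.34, the 95th percentile of 348 olfactory receptor genes, and a gene was counted as expressed when its mean over the 4 arrays reached it. Of the 37 measured targets 30 were expressed and 7 were not. Closest to the floor were HIC2 above it, with a mean of 5.38, and CCR7 below it, with a mean of 4.91. The median signal lay between 6.89 and 6.93 on the 4 arrays, and the standard deviation of the log2 differences between any pair of arrays was 0.29 to 0.39 over the 11623 expressed genes. All 9 measured monocyte and macrophage markers were above the floor on every array (10.83 to 17.09). T and NK cell markers were above it in 2 or 3 of 8 and B cell markers in 3 of 4 measured genes, with CD79A, CD79B and PAX5 as the latter, and the highest of these 12 genes reached 8.03. Epithelial markers were above it in 2 of 5, with KRT8 at 8.92 to 9.53, and fibroblast and endothelial markers in 3 to 5 of 6, with COL1A2 at 8.79 to 9.02 and PECAM1, which myeloid cells also express, at 13.95 to 14.13.

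**Figure D1:**
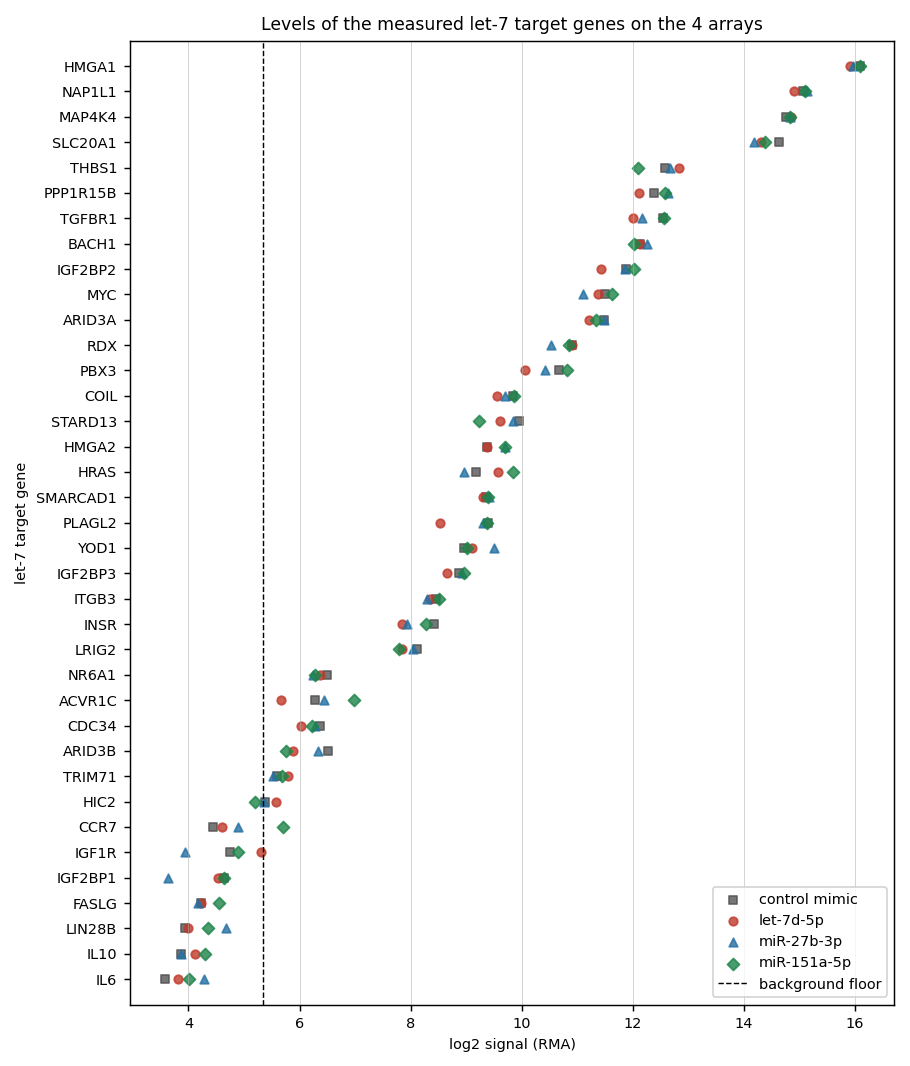
Log2 signal (x axis) of the 37 measured let-7 target genes (y axis, ordered by mean level) on each of the 4 arrays, 1 symbol per array. The dashed line is the background floor of 5.34. HMGA1, NAP1L1, MAP4K4 and SLC20A1 had the highest signals of these probe sets, all above 14, and 7 genes had means left of the line.

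On the let-7d-5p array the expressed targets were lower than on the control array as a group. Their median log2 difference was -0.20 (1.15-fold lower) against -0.01 for all expressed genes, and 22 of the 30 (73.3%) were lower, 6 were higher and 2 were equal, where 50.8% of all expressed genes were lower. Past 1.5-fold, 4 of the 30 (13.3%) were lower and 0 were higher, where 2.89% of all expressed genes were lower and 2.69% were higher by that size. The 4 were PLAGL2, ARID3B, PBX3 and ACVR1C. Under other scalings the count was 2 or 3, and only PLAGL2 passed under all 4 of them, while ACVR1C passed under none. PBX3 was inside the limit with each array centred on its median and ARID3B with a pseudocount of 16 on the linear scale. None reached 2-fold. The members nearest to the 1.5-fold limit were ACVR1C at -0.60, which was past it, and INSR at -0.57, which fell short of it.

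On the other mimic arrays the same 30 genes lay closer to all genes. Their median was -0.08 on the miR-27b-3p array, with 19 lower (63.3%), where 50.8% of all expressed genes were lower. It was 0.015 on the miR-151a-5p array, with 13 lower (43.3%), where 53.9% of all expressed genes were lower. On the miR-27b-3p array 0 of them passed 1.5-fold in either direction (4.60% of all expressed genes did so downwards and 3.20% upwards). On the miR-151a-5p array ARID3B and STARD13 were lower and ACVR1C and HRAS higher by that size (2.80% and 3.94% of all expressed genes). These comparisons share the control array, so they are not independent of each other.

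A comparison that leaves out the control array sets the let-7d-5p array against the average of the 2 remaining mimics. The 30 targets had a median of -0.14 there, against 0.01 for all expressed genes, and 20 of them were lower, where 46.9% of all were. PLAGL2 and ACVR1C were lower by 1.5-fold or more and 0 members were higher, beside 1.96% and 1.63% of all expressed genes. The difference was also negative against each array alone. Its median was -0.16 against miR-27b-3p, with 20 of 30 lower, where 48.8% of all expressed genes were lower. It was -0.17 against miR-151a-5p, with 19 of 30 lower, where 45.3% of all expressed genes were lower. All of these comparisons use the same let-7d-5p array, so they are not independent of each other. Genes of DNA replication, 12 of them, differed on those reference arrays, with medians against the control of -0.54 for miR-27b-3p and 1.06 for miR-151a-5p. On the let-7d-5p array they were at 0.00 against the control and at -0.27 against the other mimics, and their part in the last comparison was not tested.

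**Figure D2:**
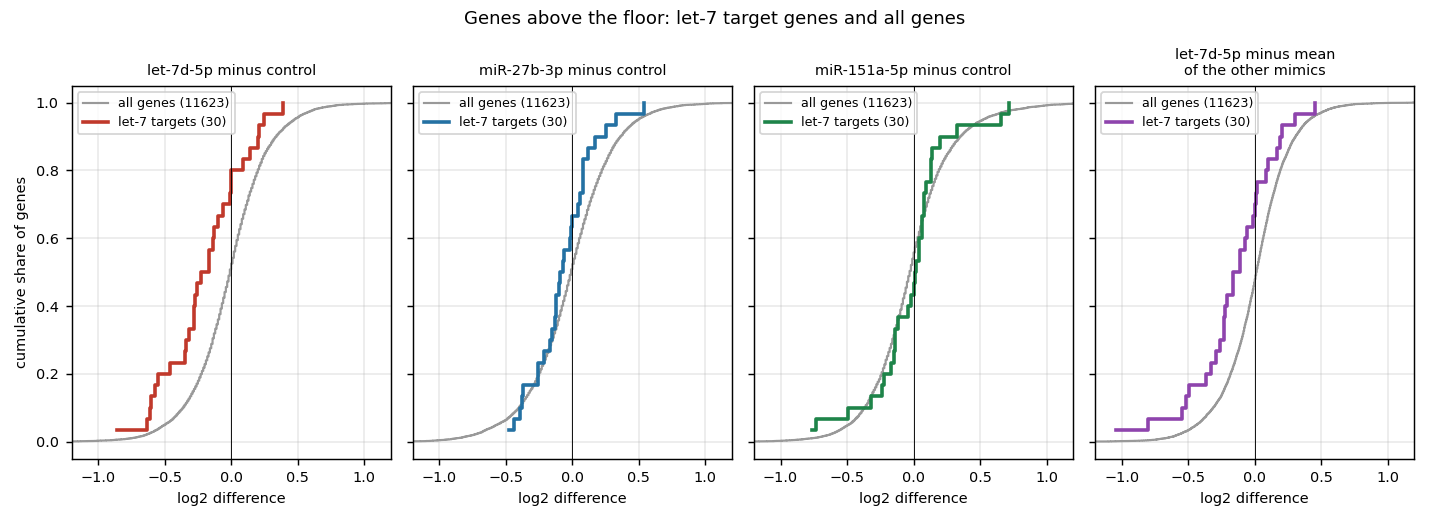
Cumulative share (y axis) of expressed genes by log2 difference (x axis, drawn from -1.2 to 1.2) for 3 comparisons with the control array and for let-7d-5p against the average of both remaining mimics. Coloured lines are the 30 let-7 targets and grey lines all 11623 expressed genes. In the first and last panels the coloured line lies left of the grey one, with medians of -0.20 and -0.14.

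The 4 values of a gene are given below with the control array first, the let-7d-5p array second, then the miR-27b-3p array and last the miR-151a-5p array. PLAGL2, a zinc finger transcription factor, had signals of 9.39, 8.53, 9.30 and 9.37. Its 3 other arrays lay within 0.09 of each other and the let-7d-5p array lay 0.77 below the lowest of them. The difference from the control was -0.86 (1.82-fold lower), which ranked 65 from the bottom among 11623 expressed genes, and that from the other mimics was -0.81, at rank 45. PLAGL2 was thus the member with the largest difference from the control, and the only one of the 4 past 1.5-fold that stood below every other array by more than those arrays differed among themselves.

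Other chromatin and transcription genes differed less. PBX3, a homeodomain partner of HOX proteins that is active in myeloid leukaemia, was at 10.68, 10.07, 10.42 and 10.82, which is 1.53-fold lower than the control and lowest of the 4 arrays. ARID3B, a DNA-binding protein with an AT-rich interaction domain, was at 6.51, 5.88, 6.34 and 5.75. Its difference of -0.63 with let-7d-5p stood beside one of -0.76 with miR-151a-5p, so the let-7d-5p array was not the lowest. ARID3A, its paralogue, was at 11.49, 11.21, 11.49 and 11.34, again lowest on the let-7d-5p array.

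HMGA1 and HMGA2 encode AT-hook proteins that shape chromatin, and HMGA2 is the textbook let-7 target. HMGA2 had the same signal of 9.37 on the control and let-7d-5p arrays and 9.70 on both others, so it was lower by 0.33 in the comparison with the other mimics and level with the control (0.04 above it with each array centred on its median). HMGA1, the highest signal among the members, was at 16.09, 15.92, 15.97 and 16.09. SMARCAD1, a chromatin remodeller, spanned 0.12 in all, at 9.36, 9.30, 9.42 and 9.40.

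MYC, the proliferation-promoting transcription factor, was at 11.50, 11.37, 11.11 and 11.63, lowest with miR-27b-3p and highest with miR-151a-5p. BACH1, a haem-regulated repressor, was at 12.14, 12.13, 12.26 and 12.02, and NR6A1, an orphan nuclear receptor of germ cells, at 6.50, 6.36, 6.24 and 6.28. HIC2, a zinc finger repressor at the floor, was at 5.37, 5.58, 5.36 and 5.20. The let-7d-5p array was not the lowest for any of these 4 genes. Of the 11 measured members of this class 9 were lower than the control, with a median of -0.14, where 50.8% of all expressed genes were lower. Of these 9, BACH1 turned from -0.01 to 0.03 with each array centred on its median.

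The IGF2BP proteins bind and stabilize messenger RNAs of the fetal programme. IGF2BP2 was at 11.89, 11.43, 11.87 and 12.02, a difference of -0.46 from the control (1.38-fold lower), and the let-7d-5p array lay 0.44 below the others, which spanned 0.15. IGF2BP3 was at 8.88, 8.65, 8.92 and 8.96, with the let-7d-5p array 0.23 below a span of 0.08. The third paralogue, IGF2BP1, was not expressed, with signals from 3.63 to 4.64. Both expressed paralogues thus stood apart on the let-7d-5p array although neither passed 1.5-fold. TRIM71, an RNA-binding ubiquitin ligase of stem cells, was close to the floor at 5.60, 5.80, 5.53 and 5.69 and highest on the let-7d-5p array. LIN28B, which blocks let-7 maturation, was below the floor on every array (3.94, 3.99, 4.68 and 4.36).

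Among receptors, TGFBR1, the type I receptor for TGF-beta, was at 12.55, 12.00, 12.17 and 12.56, which is 1.46-fold lower than the control. ACVR1C, a type I receptor for activin-related ligands, was at 6.27, 5.67, 6.44 and 6.99. It was lower than the control by 0.60 with let-7d-5p and higher by 0.72 with miR-151a-5p, so that these arrays differed by 1.32. INSR, the insulin receptor, was at 8.42, 7.85, 7.94 and 8.28, lower by 0.57 with let-7d-5p and by 0.48 with miR-27b-3p. IGF1R, its paralogue, was below the floor on every array, at 4.74, 5.31, 3.94 and 4.89.

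The expressed signalling proteins inside the cell, HRAS and MAP4K4, were not below the control with let-7d-5p. HRAS, the small GTPase, was at 9.18, 9.57, 8.97 and 9.84, 0.39 above the control with let-7d-5p and 0.66 above it with miR-151a-5p. The kinase MAP4K4 was nearly level at 14.76, 14.85, 14.84 and 14.84. On the let-7d-5p array 3 of the 5 expressed members of this class were lower than the control and 2 higher. The lower ones were the 3 receptors, and 50.8% of all expressed genes were lower.

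**Figure D3:**
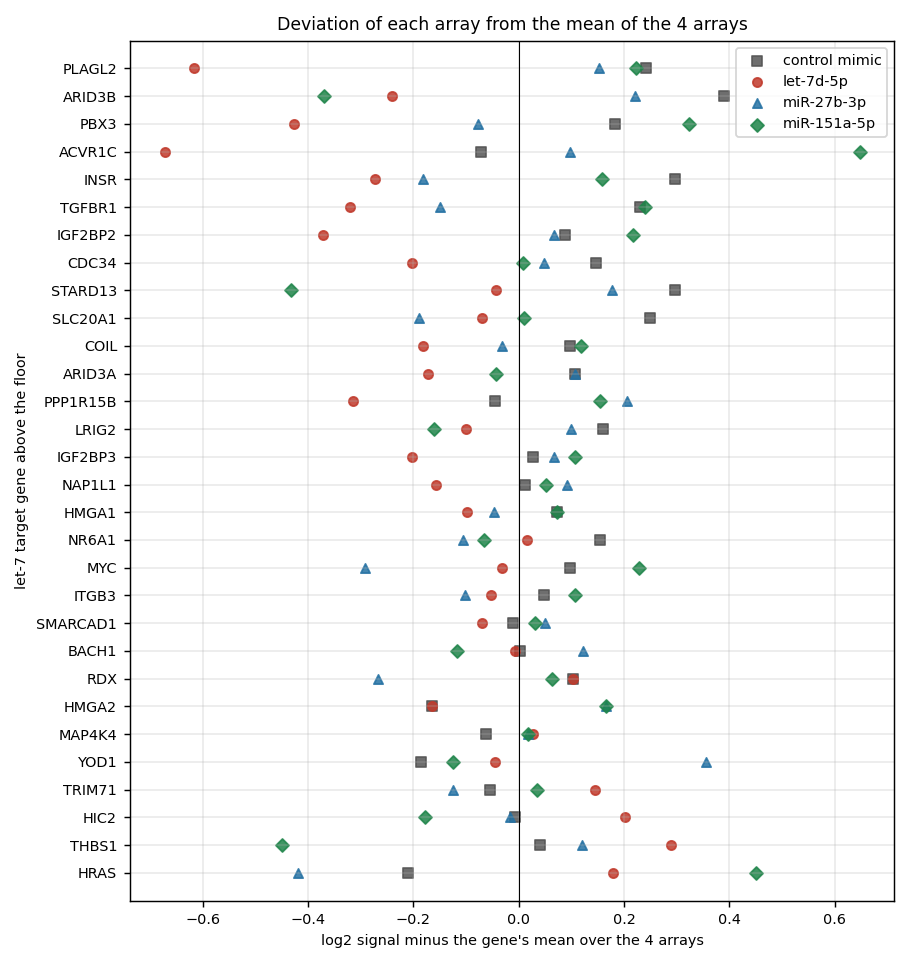
Deviation of each array from the mean of the 4 arrays (x axis, log2) for the 30 expressed let-7 targets (y axis, ordered by the difference of let-7d-5p from control, most negative at the top). The let-7d-5p symbol lies left of the other 3 by 0.77 for PLAGL2, 0.60 for ACVR1C and 0.44 for IGF2BP2, where the other 3 span 0.09, 0.72 and 0.15, and the order of the arrays varies in the lower part of the plot.

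Several members with general cell functions were also lowest on the let-7d-5p array, by smaller amounts. PPP1R15B, a subunit of the phosphatase that reverses the translational arrest of the stress response, was at 12.39, 12.12, 12.64 and 12.59. NAP1L1, a histone chaperone, was at 15.07, 14.90, 15.15 and 15.11. CDC34, a ubiquitin-conjugating enzyme that let-7 is known to repress, was at 6.37, 6.02, 6.27 and 6.23. In these 3 the gap below the other arrays (0.27, 0.17 and 0.21) was larger than the span of those arrays (0.25, 0.08 and 0.14). COIL, the Cajal body protein coilin, was at 9.84, 9.56, 9.71 and 9.86, with a gap that equalled the span.

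The remaining members of this class did not have their lowest signal on the let-7d-5p array. STARD13, which carries a START lipid-binding domain, was at 9.96, 9.62, 9.84 and 9.23, and LRIG2, a leucine-rich membrane protein, at 8.11, 7.85, 8.05 and 7.79, both lowest with miR-151a-5p. SLC20A1, a phosphate transporter, was at 14.63, 14.31, 14.19 and 14.39. It was below the control on all 3 mimic arrays, and lowest with miR-27b-3p. RDX, the cytoskeletal linker radixin, was at 10.90, 10.90, 10.53 and 10.86, and the deubiquitinase YOD1 at 8.96, 9.10, 9.50 and 9.02. Of the 9 genes of general function 7 were lower than the control, with a median of -0.27, where 50.8% of all expressed genes were lower.

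Cytokine, surface and adhesion genes were the class with the fewest expressed members. THBS1, the matrix glycoprotein thrombospondin-1, was at 12.59, 12.84, 12.67 and 12.10, highest with let-7d-5p, and ITGB3, the integrin beta 3 chain, was at 8.45, 8.35, 8.30 and 8.51. The cytokines IL6 (3.57 to 4.28) and IL10 (3.86 to 4.30) and the death ligand FASLG (4.18 to 4.55) were below the floor on every array. CCR7, a chemokine receptor, was above it on 1 array only, that of miR-151a-5p, at 5.70 against 4.44 to 4.90 elsewhere. Interferon-stimulated genes, 8 of them, were higher than the control on all 3 mimic arrays, with medians of 0.98 for let-7d-5p, 0.72 for miR-27b-3p and 0.69 for miR-151a-5p, and their part in the values of these targets was not tested.

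The 7 targets below the floor did not share the lower values of the expressed ones. Against the control their median on the let-7d-5p array was 0.16, with 1 lower (IGF2BP1, by 0.11) and 6 higher, of which IGF1R was highest at 0.57. All genes below the floor had a median of 0.03, and 52.6% of them were higher. The medians of expressed and unexpressed targets thus lay 0.36 apart, but differences below the floor are between background signals. On the other arrays the same 7 genes ranged from -1.01 (IGF2BP1 with miR-27b-3p) to 1.26 (CCR7 with miR-151a-5p).

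The expressed targets had negative medians at low, middle and high levels. The 10 with the lowest signals (means of 5.38 to 8.85) had a median difference from the control of -0.25 with 8 lower, the middle 10 (9.14 to 11.38) one of -0.17 with 6 lower, and the 10 highest (11.40 to 16.02) one of -0.17 with 8 lower. In the same ranges 52.1%, 49.9% and 49.6% of all genes were lower, with medians of -0.02, 0.00 and 0.00 and standard deviations of 0.35, 0.26 and 0.22. The 4 members past 1.5-fold lay in the lower and middle groups, 2 in each, where 4.97% and 1.81% of all genes were lower by that size, against 0.547% in the highest range.

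Counting for each gene the array on which it was lowest uses all 4 arrays at once. This count and the stricter one below were chosen after the values had been seen, so they describe the values only. The let-7d-5p array was the lowest for 14 of the 30 expressed targets (46.7%), against 21.7% of all expressed genes. The miR-27b-3p array was lowest for 7 (23.3%), the miR-151a-5p array for 6 (20.0%) and the control for 2 (6.67%), where all expressed genes gave 26.8%, 29.0% and 19.8%, and HMGA2 was tied. A stricter count asked that the array lie below the other 3 by more than the range of those 3. On the let-7d-5p array 6 targets met it (20.0%), namely PLAGL2, IGF2BP2, IGF2BP3, PPP1R15B, NAP1L1 and CDC34, against 5.86% of all expressed genes. On the miR-27b-3p array only RDX met it and on the miR-151a-5p array STARD13 and THBS1, beside 7.86% and 8.45% of all, and on the control array MAP4K4, beside 5.37%.

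**Figure D4:**
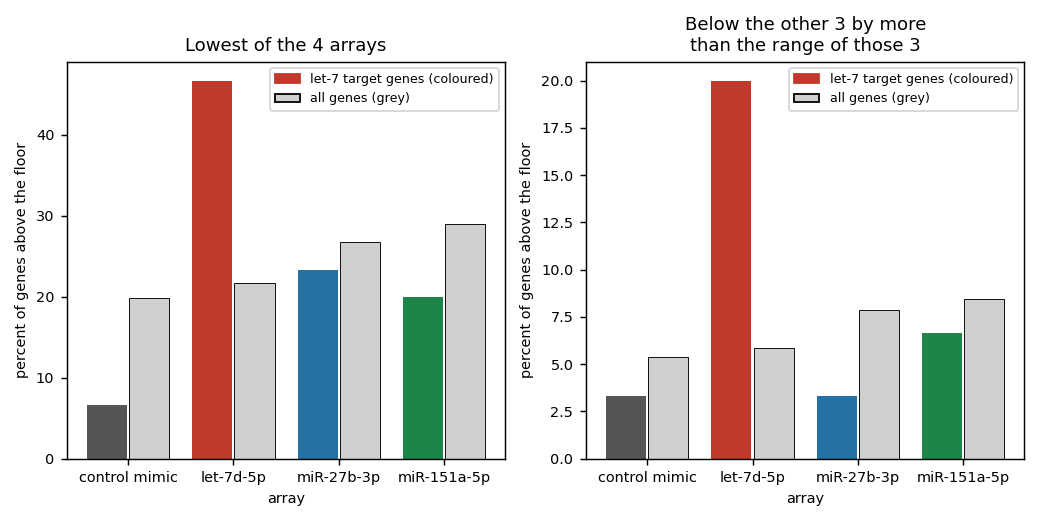
Percent of expressed genes (y axis) for which each array (x axis) was the lowest of the 4 (left) or lay below the other 3 by more than their range (right). Coloured bars are the 30 let-7 targets and grey bars all 11623 expressed genes. Both counts were chosen after the values had been seen. The let-7d-5p bars reach 46.7% and 20.0%, above the grey bars of 21.7% and 5.86%, and the coloured bars of the other arrays lie below their grey ones.

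Paralogues give a comparison within families. In the HMGA pair the differences from the control were -0.17 for HMGA1 and 0.00 for HMGA2, and in the ARID3 pair -0.28 for ARID3A and -0.63 for ARID3B. INSR was lower by 0.57, while IGF1R was measured only as background. IGF2BP2 and IGF2BP3 were lower by 0.46 and 0.23. PLAGL2 was at -0.86 and HRAS at 0.39, and their paralogues PLAGL1 and NRAS were not analysed. HRAS stayed above the control under all 4 other scalings. HMGA2 was level with the control, or 0.04 above it with each array centred on its median. The other expressed members of these families were below the control under all 4 other scalings.

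A second list held 28 further let-7 targets from the literature that are not among the 39, of which 24 were measured and 17 expressed. It was chosen with earlier results of these data known, so it is not an independent set. On the let-7d-5p array 14 of the 17 were lower than the control, with a median of -0.17, where 50.8% of all expressed genes were lower. Past 1.5-fold 2 were lower and 0 higher, beside 2.89% and 2.69% of all expressed genes. DICER1, the nuclease that cuts microRNA precursors, was at 9.86, 9.00, 9.92 and 9.74, which is 1.82-fold lower than the control and the most negative value of the list. TTLL4, a tubulin-modifying enzyme, was at 10.43, 9.67, 10.15 and 10.25, and GATM, which makes the precursor of creatine, at 11.19, 10.64, 11.45 and 11.31. All 3 genes lay below the other arrays by more than those arrays spanned. DUSP9, a phosphatase of MAP kinases, was lower by the same 0.55 as GATM. At the other end were CCND2, a D-type cyclin, at 0.40, LRIG3 at 0.37 and EDN1, the precursor of a vasoconstrictor peptide, at 0.09. CCND2 was higher still with miR-27b-3p (0.68) and miR-151a-5p (0.54), so its lowest signal was on the control array.

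The let-7d-5p array was the lowest for 8 of these 17 genes, against the 21.7% given above. The medians of the list were 0.02 with miR-27b-3p and 0.04 with miR-151a-5p. Against the mean of the other mimics it lay at -0.27, with 15 of 17 lower beside 46.9% of all expressed genes, but CDC25A, RRM2 and AURKB, genes of the cell cycle, had signals 1.60, 1.5 and 1.12 above the control with miR-151a-5p and enter that mean.

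The genes that act on let-7 precursors or on its loading had a median near that of all genes in the comparison with the control. Of 12 listed 10 were measured and 9 expressed, with a median of -0.02, 5 lower and 4 higher, and 0 past 1.5-fold. Against the mean of the other mimics their median was -0.155, with 5 lower and 4 higher. The 30 targets had a median of -0.135 there and all expressed genes one of 0.01. Against the control, the single genes were as follows. TARBP2, a partner of Dicer, was lowest at -0.49, from 5.64 on the control to 5.15, under the floor, on the let-7d-5p array. XPO5, which exports precursors from the nucleus, was at -0.21, TUT4, which tails them with uridines, at -0.16 and AGO2, an Argonaute, at -0.14. The let-7d-5p array was nonetheless the lowest for these 4 of the 9 genes (44.4%, beside 21.7% of all expressed genes). For TARBP2, TUT4 and AGO2 it lay below the other 3 by more than their range (33.3%, beside 5.86%). The same shares of the 30 targets were 46.7% and 20.0%. The others were HNRNPA1 (-0.02), AGO1 (0.01), TUT7 (0.11), DROSHA (0.13) and DIS3L2 (0.16). LIN28A was below the floor on every array, as LIN28B was.

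**Figure D5:**
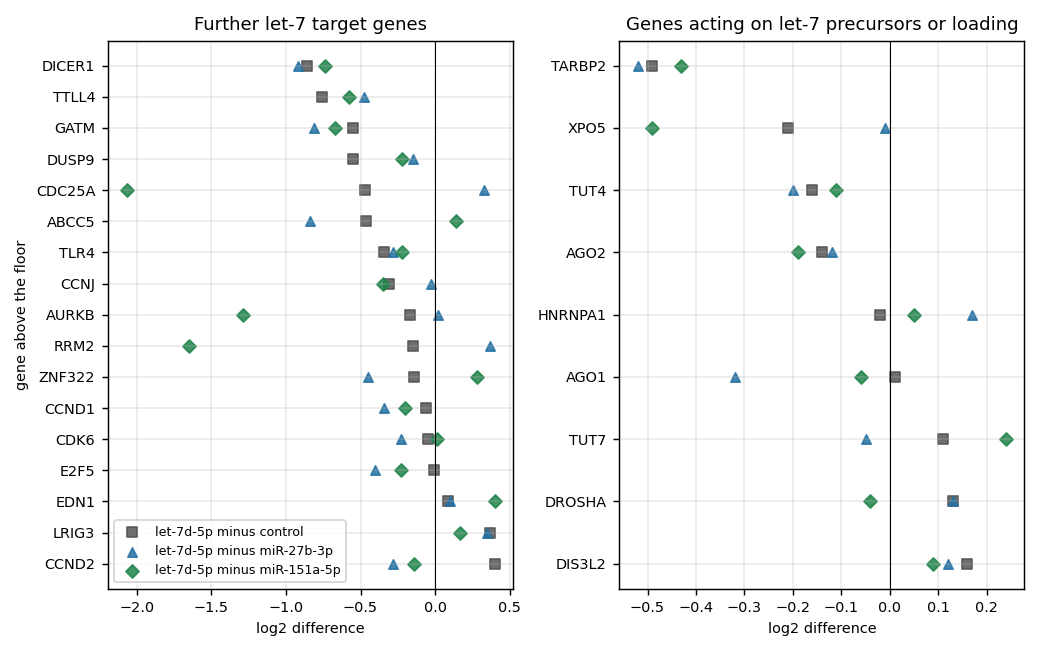
Log2 difference (x axis) of the let-7d-5p array from each other array for expressed genes (y axis) of the further let-7 target list (left, 17 genes) and of the list of genes acting on let-7 precursors or loading (right, 9 genes). Symbols mark the reference array. DICER1 and TTLL4 lie left of zero for all 3 references, and CDC25A, RRM2 and AURKB lie far left only for miR-151a-5p.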

How the data were processed

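The authors deposited 1 log2 signal for each probe set and array, made with RMA in Transcriptome Analysis Console 4.0 according to the submitters' processing notes. RMA corrects background and equalizes the arrays. The scale was read from the values. The array annotation's genome build was not stated, so no gene coordinates are given. Of 21448 probe sets 17709 were paired with 1 gene symbol, 3739 had none, and each measured let-7 target had 1 probe set. No further normalization was applied. With 1 array per group, differences were described without a test, against a size of 1.5-fold and against all expressed genes. The counts by lowest array were chosen after the values had been seen. The members and all lists were chosen with earlier results of these data known. Every member was named, and of the further targets the 3 lowest and 3 highest, with ties. CDC25A, RRM2 and AURKB were named in addition, after their values had been seen. Arrays carry no read depth, so their number limits the precision. Calculations used Python 3.11.15, numpy 2.4.6, pandas 2.3.3 and statsmodels 0.14.6, were checked on simulated data, and plots used matplotlib 3.10.9. Alternatives covered scaling, pseudocount, floor, filter, fold and reference array. A search of the transcripts for matches to the seed was planned and not run, because transcript sequences were not used here.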

Additional observations from a re-analysis of the deposited data

Results flagged for a closer look

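ACVR1C differed in opposite directions on a pair of mimic arrays, both times by more than 1.5-fold from the control. It was at -0.60 on the let-7d-5p array and at 0.72 on the miR-151a-5p array. Under all 4 other scalings the let-7d-5p value was inside 1.5-fold, at -0.56 with each array centred on its median, -0.58 with quantile normalization or loess and -0.48 with a pseudocount. The difference between these arrays was not tested, because each group holds 1 array.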

How the results depend on the processing

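No paired analysis was possible because each group holds 1 array. The median difference of the expressed targets from the control (-0.20) stayed between -0.13 and -0.23 under every scaling, floor, filter, summary and reference tried. Its direction never turned, but all of these settings use the same let-7d-5p array. The median was -0.13 over all 37 measured targets, -0.14 against the mean of the other mimics and -0.13 against the mean of the 3 other arrays. The count lower by 1.5-fold (4) was the least stable value. It was 2 with each array centred on its median or with a pseudocount of 16 on the linear scale. It was also 2 with the floor at the median of all probe sets. The same count came against the miR-27b-3p array, against the mean of the other mimics or against the mean of the 3 other arrays. With the limit at 25% on the linear scale the count was 9, and the share of all expressed genes past that limit is not given here. It was 0 at 2-fold and at 3-fold, the ratio the study used to list genes that were higher with a mimic. It was 3 with quantile normalization or loess. ACVR1C lost the call under all 4 other scalings, PBX3 under centring and ARID3B under the pseudocount, while PLAGL2 kept it under all 4. The distance between expressed and unexpressed targets (-0.36) was -0.29 with the pseudocount and -0.25 with the floor at the median. The let-7d-5p array was lowest for 14 expressed targets under all 4 other scalings and for 12 to 14 under other floors, and 5 to 7 met the stricter count. Averaging probe sets changed nothing, since no member has more than 1.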
